A study of Mus musculus with 2 samples.

Results

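Interferon regulatory factor genes (Irf1, Irf2, Irf3, Irf4, Irf5, Irf7, Irf8 and Irf9) were taken by name, 8 of the 21779 protein-coding genes examined, and a STAT5 peak was counted for a gene if its midpoint fell in the gene body or no more than 20 kb outside it. STAT5 binding had been mapped by chromatin immunoprecipitation and sequencing (ChIP-seq) in B cell progenitor leukemia cells from the lymph nodes of a C57BL/6 mouse of genotype Stat5b-CAxBlnk+/-. This genotype combines a constitutively active form of STAT5b with 1 mutant copy of Blnk, whose product links the pre-B cell receptor to its downstream signals. Before fixation the cells were stimulated with IL7 at 10 ng/mL over 30 minutes, so the immunoprecipitated sample (antibody sc-835, C-17) and the input sample, which had no immunoprecipitation, share genotype, stimulus and tissue. What drives the Stat5b-CA transgene, and the age and sex of the mouse, were not stated in the labels. There was 1 library of each kind and no cells without the transgene or without IL7, so no difference between conditions or animals could be tested. The values are peak positions on mouse build mm10, 5908 in all and 5901 on assembled chromosomes, with no height or read depth. The threshold for listing a peak is unstated, so the lack of a listed peak does not show a lack of STAT5. A peak list measures no expression, so the labelled cell type could not be checked against marker genes.

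IRF proteins are transcription factors that share a DNA-binding domain which recognises GAAA repeats, the core of the interferon-stimulated response element. IRF3, IRF5 and IRF7 are activated downstream of pattern-recognition receptors, IRF9 is the DNA-binding part of the complex that answers type I interferon, and IRF1 and IRF2 bind the same element as an activator and an antagonist. IRF4 and IRF8 bind together with the ETS factors PU.1 and Spi-B, and in pre-B cells they restrain proliferation driven by IL7 and promote light-chain gene recombination. STAT5 is the factor that IL7 receptor signalling activates, and STAT dimers bind the interferon-gamma-activated sequence, TTC and GAA around a short spacer.

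STAT5 peaks lay at 7 of the 8 Irf genes (87.5%, exact 95% interval 47.3 to 99.7), where 21.6% of all protein-coding genes had a peak by the same rule. Among genes as long as the shortest to the longest Irf gene, the share was 22.9%. The 7 genes held 18 peaks. Irf8 had 4, Irf1, Irf4 and Irf5 had 3 each, Irf2 and Irf9 had 2 each, Irf3 had 1, and Irf7 had no listed peak. Of all protein-coding genes, 6.70% had 2 or more peaks, 2.48% had 3 or more and 1.07% had 4 or more, against 6, 4 and 1 of the 8 Irf genes. Because the genes had been proposed with earlier results of these data known, no test was made of these counts.

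At Irf1, Irf2, Irf8 and Irf9 a peak lay on the promoter itself. The RefSeq promoter windows, which run from 250 bases before to 50 bases after a transcription start (build GRCm38.p6, the coordinates of mm10), were available for all 8 genes, 11 windows in all. A peak overlapped a window of 4 of the 8 genes, where 3.28% of the protein-coding genes with a window had one. By window, 4 of 11 were overlapped, against 2.25% of the windows of all genes. The bases shared by peak and window are shown for these genes, and for Scaf1, whose start lay under the only peak counted for Irf3. Each runs 5′ to 3′ on the gene's strand and stops at most 30 bases past the start. Capitals mark a match to the STAT element, TTC and GAA with 3 bases (TTCNNNGAA) or 4 bases between them. Both forms read the same on either strand.
Irf1, chr11:53769830-53770043, plus strand: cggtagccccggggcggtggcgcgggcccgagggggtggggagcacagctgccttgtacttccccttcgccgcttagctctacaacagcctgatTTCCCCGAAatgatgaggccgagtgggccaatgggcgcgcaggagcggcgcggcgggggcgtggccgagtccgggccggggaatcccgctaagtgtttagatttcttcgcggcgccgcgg
Irf2, chr8:46739495-46739678, plus strand: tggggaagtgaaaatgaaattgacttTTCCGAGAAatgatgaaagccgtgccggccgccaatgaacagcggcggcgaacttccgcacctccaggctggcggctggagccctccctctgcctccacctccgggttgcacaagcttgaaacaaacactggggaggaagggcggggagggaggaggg
Irf8, chr8:120736108-120736381, plus strand: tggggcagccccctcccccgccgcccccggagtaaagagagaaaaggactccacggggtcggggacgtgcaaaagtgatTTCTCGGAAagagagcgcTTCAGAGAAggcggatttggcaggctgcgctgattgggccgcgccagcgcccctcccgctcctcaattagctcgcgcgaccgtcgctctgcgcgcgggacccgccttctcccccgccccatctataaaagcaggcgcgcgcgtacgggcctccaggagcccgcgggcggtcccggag
Irf9, chr14:55603873-55604014, plus strand: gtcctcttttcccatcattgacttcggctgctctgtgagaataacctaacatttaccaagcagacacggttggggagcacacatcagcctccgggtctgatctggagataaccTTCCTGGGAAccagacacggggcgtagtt
Scaf1, chr7:45016220-45016409, minus strand: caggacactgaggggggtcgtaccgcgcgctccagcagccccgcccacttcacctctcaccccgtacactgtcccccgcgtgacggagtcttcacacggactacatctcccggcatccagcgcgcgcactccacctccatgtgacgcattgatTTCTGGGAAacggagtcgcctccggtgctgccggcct

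Every one of the 4 Irf promoter windows under a peak held a STAT element, and in each case the element lay within the peak. Irf1 had TTCCCCGAA, 86 bp before the start and 40 bp from the peak midpoint. Irf2 had TTCCGAGAA, 220 bp before the start and 29 bp from the midpoint. In Irf8 there was a pair, TTCTCGGAA and TTCAGAGAA, with 9 bases between them, which lay 16 and 2 bp from the midpoint. Irf9 differed from these, since its window had no match with 3 bases between TTC and GAA. Its match, TTCCTGGGAA, has 4, lay 5 bp after the start and was 102 bp from the midpoint of a peak that extends past the window. Of that 438-bp peak, 162 bp lay in the window. The rest, with the midpoint, was not searched for either form.

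None of the other 7 Irf windows, those of Irf3, Irf4, Irf5 and Irf7 and the second starts of Irf1, Irf8 and Irf9, held either STAT element. Over the 32851 promoter windows of all genes, TTCNNNGAA was present in 8.30%. It was present in 285 of 738 windows overlapped by a peak (38.6%, exact 95% interval 35.1 to 42.2) and in 7.60% (7.31 to 7.90) of the others. For the form with 4 bases between, the shares were 10.0% (7.96 to 12.4) and 6.88% (6.61 to 7.16). The element with 3 bases between was thus the one whose share differed most between windows with and without a peak, while the form found at Irf9 differed less. Windows of 1 gene or of neighbours can overlap, so these intervals are too narrow. A match describes letters and not binding at that site.

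**Figure D1:**
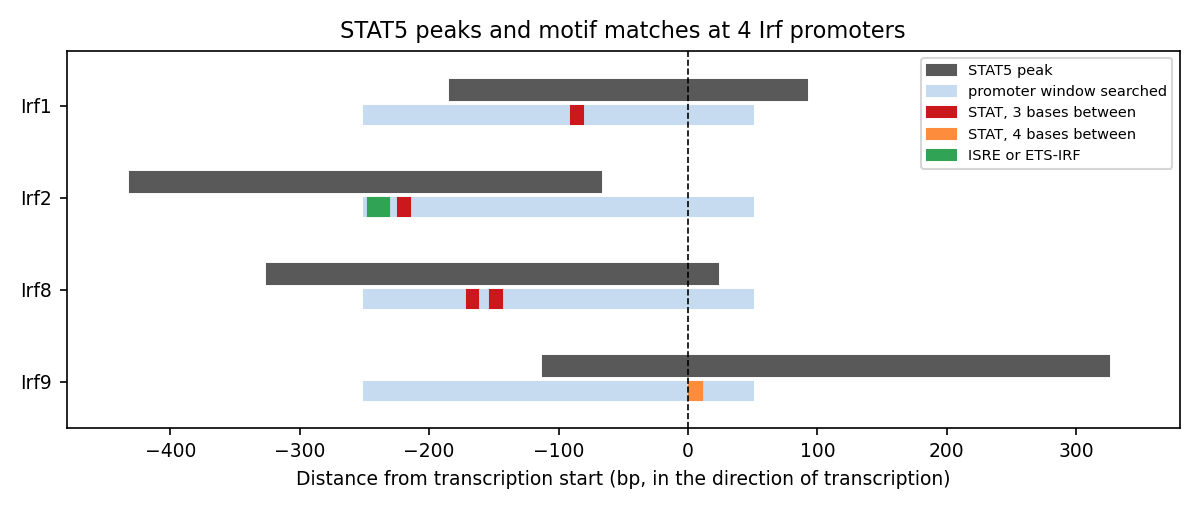
STAT5 peaks (dark bars), the 300-base promoter windows searched (pale bars) and motif matches (coloured) at Irf1, Irf2, Irf8 and Irf9, by distance from the transcription start in bp. The STAT matches lie under the peak at all 4 genes, before the start at Irf1, Irf2 and Irf8 and just after it at Irf9.

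**Figure D2:**
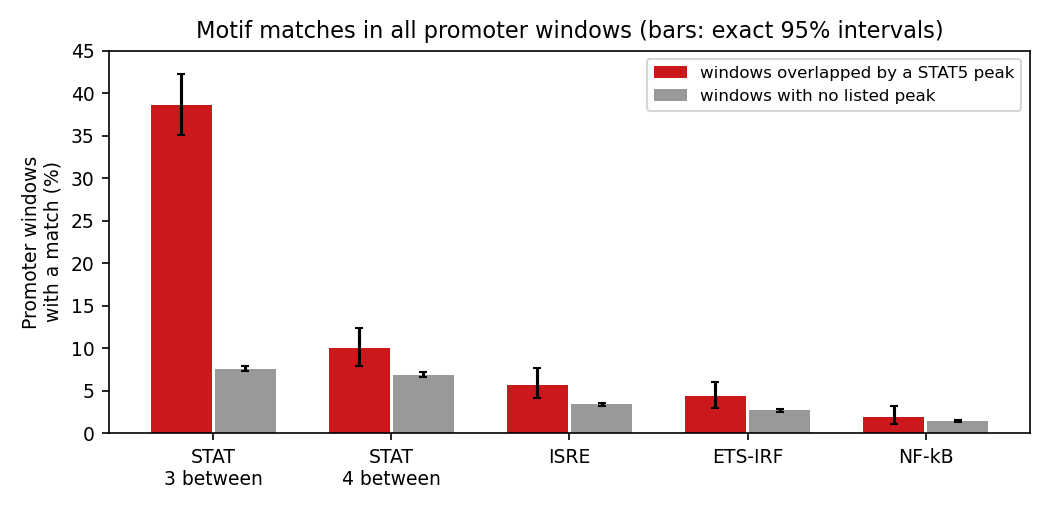
Share of all promoter windows with a match to each motif, in percent, for the 738 windows overlapped by a STAT5 peak and the 32113 others, with exact 95% intervals. The STAT element with 3 bases between stands at 38.6% and 7.60%, and the other 4 motifs differ less.

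Elements bound by IRF proteins were searched in the Irf promoters as well. The interferon-stimulated response element was searched as GAAA, 2 free bases and GAAA, and the ETS-IRF composite element as GGAA, 2 free bases and GAAA, on both strands. Irf2 was the only one of the 8 genes with a match: GAAAATGAAA at 237 bp and GGAAGTGAAA at 243 bp before the start, which overlap each other and lie under the same peak as its STAT element. Of all windows, 3.44% and 2.72% held these 2 motifs, and of the 738 windows overlapped by a peak, 5.69% and 4.34% did. For NF-kB only 1 strict form was searched (GGGA, 2 free bases and TTCC, on both strands). This form, present in 1.47% of all windows, was in none of the 11 Irf windows. Looser forms of the NF-kB element were not searched, so the Irf promoters may still hold such an element.

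Irf8, which encodes a factor of B cells and myeloid cells, had the most peaks of the 8 genes (RefSeq gene at chr8:120736358-120756694, plus strand). Its promoter peak (chr8:120736033-120736381) was 349 bp wide with its midpoint 151 bp before the start. A 550-bp peak, the widest at any Irf gene, lay 10.8 kb upstream (chr8:120725288-120725837). The other pair, 229 and 241 bp wide, lay 3.83 and 7.98 kb past the end of the gene. Their places in the deposited order, which has no stated key, were 3289 and 5729 of 5908. No other protein-coding gene lay within 20 kb of any of these 4 peaks. Just beyond the 20 kb limit, a 385-bp peak lay 20.9 kb upstream, and further peaks of 256 and 377 bp lay 36.6 kb upstream and 43.3 kb downstream. With flanks of 50 kb Irf8 therefore had 7 peaks, a number reached by 0.354% of all protein-coding genes.

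Irf4, which like Irf8 acts in pre-B cells, had a different layout (chr13:30749233-30766981, plus strand). No peak overlapped its promoter window. The nearest was 444 bp wide (chr13:30747758-30748201), with its midpoint 1.25 kb before the start and its edge 781 bp short of the window. A second peak, 196 bp wide and the narrowest at any Irf gene, lay inside the gene, 2.19 kb after the start. It was near the lower limit of the whole list, where 2.44% of peaks were as narrow or narrower. Its place in the deposited order, which has no stated key, was 5839 of 5908. The third, 254 bp wide, lay 3.20 kb past the end, within 20 kb of Exoc2 as well. A 449-bp peak 25.1 kb upstream fell outside the limit. The bases under the Irf4 peaks were not analysed here, since no promoter window covered them.

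Irf1, whose product activates interferon-stimulated genes, had all 3 of its peaks upstream (chr11:53770014-53778374). The promoter peak (277 bp) was centred 46 bp before the start, and peaks of 340 and 295 bp lay 6.40 and 7.04 kb before it. The midpoint of the 340-bp peak lay inside Mir7671, a microRNA gene. Irf2 is the longest of these genes, at 107.7 kb, and no peak midpoint lay inside it. Its promoter peak (365 bp, centred 249 bp before the start) also covered the start of Gm16675, a long noncoding RNA gene on the opposite strand, and a 368-bp peak lay 5.17 kb past the end. The peak on the Irf9 promoter was 438 bp wide, centred 107 bp after the start. The other Irf9 peak, 548 bp wide and 12.4 kb upstream, covered the promoter window of Rnf31, which encodes a subunit of the linear ubiquitin ligase, and touched that of Psme2, a proteasome activator gene. The 300-base Rnf31 window lay wholly under that peak and held no STAT element of either form.

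The genes of the pattern-recognition arm differed from one another. Irf5, which acts downstream of MyD88, had a 252-bp peak inside the gene. Peaks of 287 and 206 bp lay 1.64 and 18.7 kb upstream of the edge of Irf5, the last inside Kcp. The midpoints of the 287-bp and 206-bp peaks both lay inside Gm26627, a long noncoding RNA gene. The 206-bp peak stood at place 5554 of 5908 in the deposited order. The single peak counted for Irf3 (237 bp, 13.4 kb past the gene) lay at the start of Scaf1, which encodes a splicing-related protein. That window held TTCTGGGAA, 3 bp before the Scaf1 start and 39 bp from the peak midpoint. When each peak was given only to the gene around it or nearest to it, Irf3 had none. Irf7, the amplifier of type I interferon production, had no listed peak within 50 kb, and the nearest lay 58.5 kb away. With no flank, 3 of the 8 genes (Irf4, Irf5 and Irf9) held a peak, against 9.85% of all protein-coding genes; with flanks of 5 kb 6 did, against 14.3%, and with flanks of 50 kb 7 did, against 33%. Of the 18 peaks, 10 lay upstream of an Irf gene, 3 inside and 5 downstream. The limit of 20 kb lay between the Irf5 peak at 18.7 kb, the farthest counted, and the Irf8 peak at 20.9 kb, the nearest left out.

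**Figure D3:**
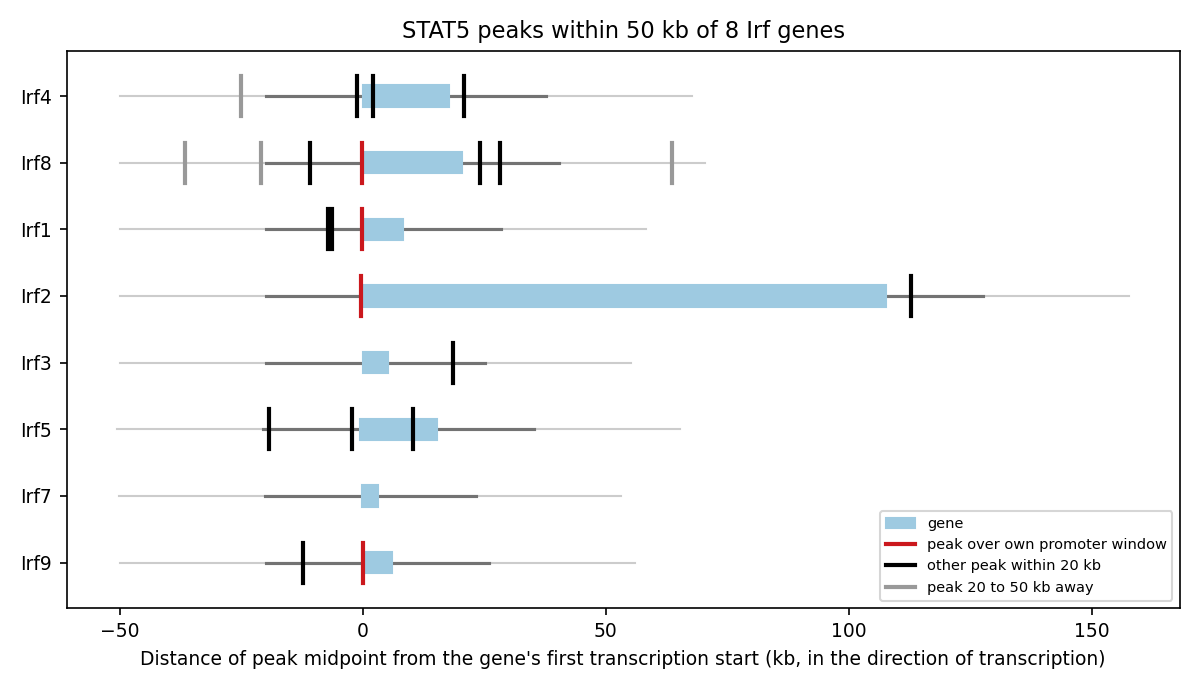
Peak midpoints (vertical ticks) by distance in kb from the first transcription start of each of the 8 Irf genes, with gene bodies in blue, the 20 kb flanks in dark grey and the 50 kb flanks in pale grey. Red ticks, peaks that overlap the gene's own promoter window, are seen at Irf8, Irf1, Irf2 and Irf9, and Irf7 has no tick.

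Irf4 and Irf8 were compared with the other 6 genes as peaks per 100 kb of gene and flanks, since the genes differ in length. Irf4 and Irf8 together held 7 peaks in 118.1 kb, or 5.93 per 100 kb (exact Poisson 95% interval 2.38 to 12.2). The other 6 held 11 in 386.4 kb, or 2.85 per 100 kb (1.42 to 5.09). The ratio was 2.08, and its exact conditional interval, 0.684 to 5.88, included 1. Peaks at Irf4 and Irf8 were thus not distinguishable in density from those at the other Irf genes at this number of peaks. Without Irf2, the longest gene, the ratio was 1.57 (0.498 to 4.74), and with flanks of 5 kb it was 3.55 (0.818 to 15.4). With flanks of 50 kb it was 3.13 (1.23 to 7.97), where 3 further peaks of Irf8 and 1 of Irf4 entered. Of these, the Irf4 peak lay nearest to Dusp22 and the Irf8 peak 36.6 kb upstream lay nearest to Cox4i1, among protein-coding genes. These intervals cover counting error only and treat neighbouring peaks as independent. Of the 18 peaks, 7 lay within 20 kb of another protein-coding gene as well: all those of Irf3, Irf5 and Irf9 and 1 of Irf4. By nearest or enclosing gene, Irf4 and Irf8 kept 3 and 4 peaks, and Irf1 and Irf2 kept 3 and 2. Irf5 then had 2, Irf9 had 1 and Irf3 had 0. The joined windows of all protein-coding genes held 0.321 peaks per 100 kb.

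By single gene, the order from high to low was Irf8 (6.63 peaks per 100 kb), Irf1 (6.20), Irf5 (5.38), Irf4 (5.19), Irf9 (4.34), Irf3 (2.21), Irf2 (1.35) and Irf7 (0). The Poisson intervals of all 8 overlapped one another, from 1.81 to 17.0 at Irf8 to 0.164 to 4.89 at Irf2, and the count of 0 at Irf7 allows up to 8.52. Promoter peaks likewise did not follow the division: 1 of the 2 pre-B genes (Irf8) and 3 of the other 6 had one.

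**Figure D4:**
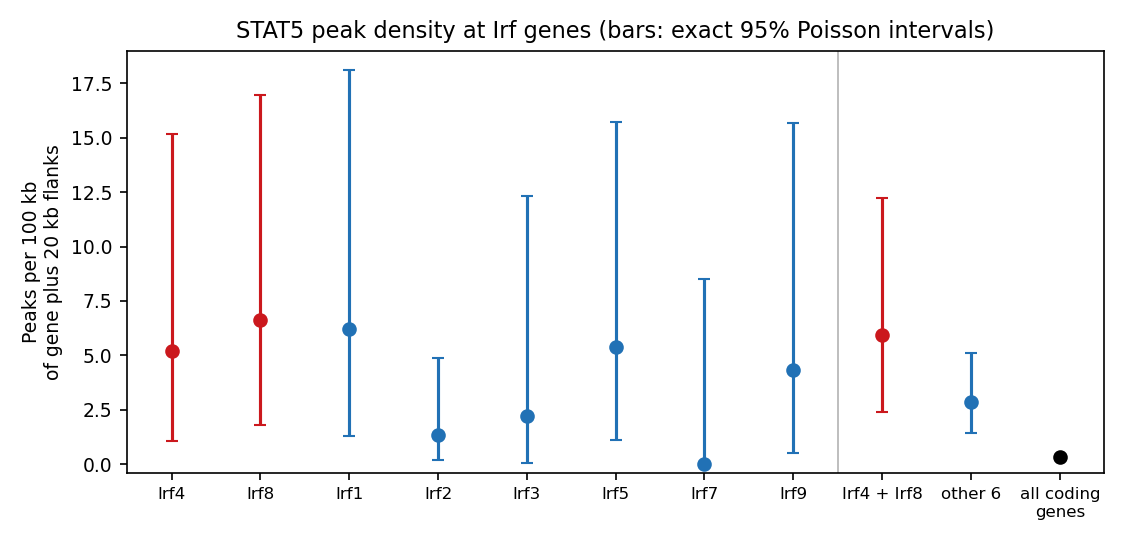
Peaks per 100 kb of gene plus 20 kb flanks for each Irf gene, for Irf4 with Irf8, for the other 6 and for all protein-coding genes, with exact 95% Poisson intervals. The intervals of the 8 genes overlap, and the pooled values are 5.93 and 2.85 per 100 kb against 0.321 for all genes.

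The widths of the Irf peaks resembled those of the list as a whole. The narrowest was 196 bp and the widest 550 bp, and their median was 291 bp, against 295 bp for all peaks. The median was 254 bp at Irf4 and Irf8 and 295 bp at the other genes. The 4 promoter peaks had a median of 357 bp and the other 14 one of 270.5 bp. Of the lines of the deposited list, whose order has no stated key, the first 2954 held all 4 promoter peaks (places 64, 245, 883 and 1698) and 5 of the other 14. Widths and places were not compared with those of promoter peaks in the whole list. It is therefore not known whether these differences are particular to Irf promoters.

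Genes that act with the IRF proteins were counted by the same rule, in lists that overlap in part and were also chosen with earlier results known. Of 17 genes for DNA-binding partners and corepressors of IRF proteins, all 17 had a peak, against 21.6% of all protein-coding genes. Junb and Ikzf3 had 4 peaks each, and Ikzf1, Etv6 and Nfatc1 3 each. Spi1 and Spib, which encode the ETS partners PU.1 and Spi-B, had 1 each, and the AP-1 partner genes Batf and Batf3 had 2 each. The genes for the corepressors that bind IRF2, Irf2bp1 and Irf2bp2, had 1 and 2, and the related Irf2bpl had 2.

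Of 20 genes on which IRF4 and IRF8 are known to act in B cells, 19 had a peak, against 21.6% of all protein-coding genes. Ebf1 had 7, Ikzf3 4 and Ikzf1 3, and the surrogate light-chain genes Igll1, Vpreb1 and Vpreb2 had 3 each. Blnk, Bcl6 and Il7r also had 3 each, so 9 genes of the list had 3 or more. The neighbours Igll1 and Vpreb1 were counted with the same 3 peaks.

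The signalling genes around the family were split. Of 11 genes for interferon receptors, their kinases and STATs, 9 had a peak, against 21.6% of all protein-coding genes. Il10rb had 6, Ifngr2 4 and Ifnar2 3, and they lie in 1 gene cluster. Stat2, whose product binds IRF9, had 2, and Ifnar1 and Tyk2 had none. Of 19 genes for pattern-recognition receptors, adaptors and kinases upstream of IRF3, IRF5 and IRF7, 6 had a peak (31.6%, exact 95% interval 12.6 to 56.6), an interval that includes the share of all genes. These were Cgas and Mavs with 2 each and Sting1, Myd88, Traf6 and Tbk1 with 1 each. No Toll-like receptor gene in the list had a listed peak. Of 30 interferon-stimulated genes, 14 had a peak (46.7%, 28.3 to 65.7), against 21.6% of all protein-coding genes, with 3 at Gbp4 as the highest. The neighbours Psmb8, Psmb9 and Tap1 had 2 each and share peaks in part. The intervals treat the genes of a list as independent, which neighbours with shared peaks are not. They are given as description and not as a test of any list.

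**Figure D5:**
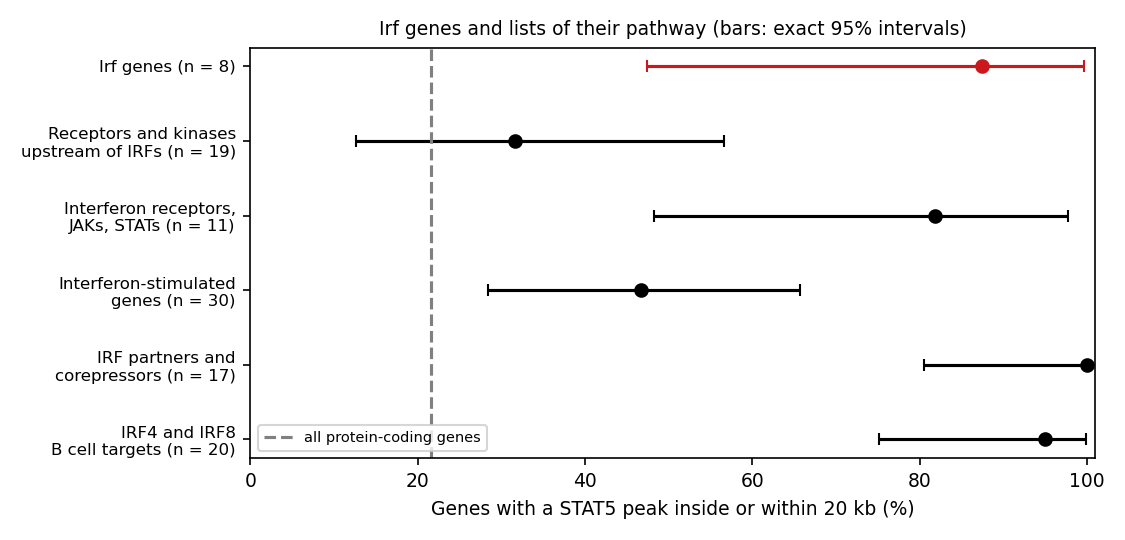
Share of genes with a STAT5 peak inside or within 20 kb, in percent with exact 95% intervals, for the 8 Irf genes and the 5 lists of genes that act with them, beside all protein-coding genes (dashed line at 21.6%). Partners of IRF proteins and B cell genes on which IRF4 and IRF8 act stand at 100% and 95%, and the list of receptors and kinases upstream has an interval that includes the dashed line. The intervals treat genes as independent and are not a test of the lists.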

How the data were processed

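Per the labels' protocols, chromatin of leukemic lymph node cells was cross-linked with 1% formaldehyde (10 minutes) and sheared to about 200 bp. The deposited values are the start and end of each peak, which the authors gave with a name and no score. MACS2, Picard, BWA 0.7.4 and build mm10 are named in the submitters' processing notes, with no role given; the threshold, the filters and the use of the input are not stated there. Depth is unknown. Positions are counted from 1. Genes came from RefSeq GRCm38.p6; genes with a start under 3000000 bp, except on chromosome Y, were left out as misplaced. Intervals are exact (Poisson or Clopper-Pearson, SciPy 1.17.1, Python 3.11.15) and cover counting error only. Counting and motif search were tested on simulated data. The genes and lists were chosen with earlier results of these data known. Named list genes were those with 3 or more peaks, at most 6 a list, or failing that those with 1 or 2; others named were chosen after their values were seen. Of the interferon-stimulated list, 2 of 32 genes were not matched. A planned comparison of IRF protein sequences was not run. A further gene of the family is not reported here.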

Additional observations from a re-analysis of the deposited data

How the results depend on the processing

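The 18 peaks at the 8 genes fell to 3 with no flank, 10 with flanks of 5 kb, 9 in the first 2954 peaks of the deposited order and 9 in the widest 50% of peaks. The number of genes with a peak fell from 7 to 3 with no flank and was 5 to 7 under the other 7 alternatives run. Among all protein-coding genes the share was 9.85% with no flank, 14.3% with flanks of 5 kb and 33% with flanks of 50 kb. It was not computed for the other alternatives, so the counts under those have no background beside them. The density ratio of Irf4 and Irf8 to the other 6 ranged from 1.57 to 3.55 over 15 alternatives, all above 1. Its interval included 1 in 14 of them, the exception being flanks of 50 kb. The alternatives recount much the same peaks, so their shared direction is not separate support. By nearest or enclosing gene the ratio was not computed. The ratio was 1.82 for Irf4 alone and 2.33 for Irf8 alone. Irf3 lost its only peak with no flank, with flanks of 5 kb, in the widest peaks and by nearest gene, and Irf5 lost all 3 in the widest peaks. With no flank, Irf1, Irf2 and Irf8 also had none. No paired analysis was possible because there was 1 library of each kind. With no replicates and unknown depth, the spread between animals or libraries is not known.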
